A study of Mus musculus with 4 samples.

Results

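The interleukin-1 family of mouse bone marrow neutrophils was followed here through 9 genes, the ligands Il1a, Il1b and Il18, the receptor antagonist Il1rn, the decoy receptor Il1r2, the binding protein Il18bp, and the signalling receptor chains Il1r1, Il1rap and Il18rap. They were chosen by name in the raw count table, and all 9 were among its 54532 genes and among the 13479 genes with enough counts to be tested. Neutrophils of wild-type (WT) mice were given DMSO, a solvent, or amyloid-beta 40 (Aβ40), the peptide released from amyloid precursor protein that builds up in vessel walls in cerebral amyloid angiopathy, and total RNA was sequenced. The peptide was used at 20 µg/ml, for 4 h, and no amount or time is recorded here for DMSO. There were 2 libraries per group, called DMSO 1, DMSO 2, Aβ40 1 and Aβ40 2 here. Not given in the labels are the strain, sex or age of the mice, how the neutrophils were separated, the form of the peptide, and whether replicate libraries stem from different animals. The p-values therefore measure only the spread between these libraries, which may be technical.

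Interleukin-1 alpha and beta bind the same receptor, IL1R1, which signals once the accessory protein IL1RAP joins it, through MYD88 and the IRAK kinases to NF-kB. The antagonist made from Il1rn occupies IL1R1 without signalling, and IL1R2 binds the ligand but lacks the signalling domain. Interleukin-18 signals through a separate pair, IL18R1 and IL18RAP, and is held back by IL18BP. Interleukin-1 beta and interleukin-18 are made as precursors that caspase-1 cuts inside inflammasomes, and neutrophil granule proteases can also process family ligands, so a transcript level is not a level of active cytokine.

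Total counts ran from 17212264 to 19524125 per library. The labelled cell type was matched by its markers: 12 neutrophil markers, among them S100a8, S100a9 and Ly6g, summed to between 95461 CPM (counts scaled to library size) in DMSO 2 and 139745 CPM in Aβ40 1. Marker genes of other marrow cells were also present and differed between the groups. These lists were chosen with earlier results of these data known, so their counts beside the share of all tested genes are descriptive only. Summed B cell markers were at 140 and 139 CPM in DMSO 1 and 2 and at 454 and 467 CPM in Aβ40 1 and 2. All 8 of 8 were higher in both Aβ40 libraries, against 23.2% of all tested genes. By edgeR 5 of them were called higher (adjusted p under 0.05), against 0.126% of all tested genes. Summed eosinophil markers were at 1623 and 1365 CPM against 3566 and 3611 CPM, also with 8 of 8 higher in both and 1 called. The 10 monocyte and macrophage markers summed to 2883 and 2747 CPM against 3734 and 3262 CPM, with 6 higher and 2 lower in both Aβ40 libraries. The 8 dendritic cell markers summed to 143 and 171 CPM against 336 and 292 CPM, with 6 higher in both. The 10 T and NK cell markers summed to 64.5 and 62.4 CPM against 99.8 and 103.9 CPM. Of the 9 tested, 8 were higher in both and 1 was called. Basophil and mast cell markers summed to 844 and 848 CPM against 938 and 910 CPM. Of these 8 markers 5 were higher in both Aβ40 libraries and 0 lower in both, with a median log2 fold change of 0.35. No marker was at 0 in all 4 libraries. The lowest marker was Ncr1 of NK cells, with 2 and 0 counts with DMSO and 6 and 5 with Aβ40. These are bulk libraries, in which fewer cells of a type and less RNA per cell cannot be told apart.

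Il1a and Il1b are neighbours on chromosome 2, with no other protein-coding gene between them, yet they lay at opposite ends of the levels of the 3 ligands among the members. In the deposited coordinates (mouse build mm10) Il1a (ENSMUSG00000027399) spans 129299610 to 129309972 and Il1b (ENSMUSG00000027398) 129364570 to 129371139, both on the minus strand and 54597 bases apart. The 250 bases before each start are shown because these neighbouring ligand genes had very different levels while both hold the same core promoter element at nearly the same place. They are RefSeq sequences of build GRCm38.p6, at chr2:129309973-129310222 for Il1a and chr2:129371140-129371389 for Il1b, written 5′ to 3′ on the minus strand, with the TATA box letters TATAAAA in capitals.
Il1a: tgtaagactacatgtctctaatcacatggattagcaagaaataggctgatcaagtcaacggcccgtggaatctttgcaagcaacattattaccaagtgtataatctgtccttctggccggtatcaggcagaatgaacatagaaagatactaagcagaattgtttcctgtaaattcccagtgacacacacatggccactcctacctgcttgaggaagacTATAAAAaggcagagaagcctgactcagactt
Il1b: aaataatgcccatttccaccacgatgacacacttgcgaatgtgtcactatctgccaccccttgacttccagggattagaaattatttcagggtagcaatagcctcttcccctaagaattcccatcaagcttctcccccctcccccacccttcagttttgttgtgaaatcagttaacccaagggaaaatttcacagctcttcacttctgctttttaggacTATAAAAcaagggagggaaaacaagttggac
The element begins 32 bases before the start of Il1a and 31 bases before that of Il1b. It was searched on both strands in the 250 bases before the start, and 4.98% of 32851 mouse promoters held it. The 9 genes have 12 promoters in that table, and these 2 were the only ones with a match. The C/EBP letters TTGCNNAA were found in 2 of the 12, of Il1r1 and Il18bp, against 9.56%, and the E-box CACGTG in 1, of Il1r2, against 6.02%. The PU.1 letters GAGGAAGT were found in 1 of the 12, that of Il18rap, against 2.44%. The Il1r2 window, chr1:40085843-40086092, lies inside the deposited span of that gene, which begins at 40074079. Some windows belong to other starts of the same gene, and 2 of those of Il1rn overlap each other. These matches describe letters in a window and not binding.

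Il1b was by far the most abundant member. Its level, in FPKM (fragments scaled to gene length and library depth), was 824 and 698 in the DMSO libraries and 799.7 and 632 in the Aβ40 libraries. The groups overlapped, since each held 1 higher and 1 lower library. It ranked 69 among all tested genes by mean FPKM. The log2 fold change of Aβ40 over DMSO was -0.07 (SE 0.21; edgeR quasi-likelihood test, Benjamini-Hochberg adjusted p = 0.915), with a 95% interval from -0.55 to 0.40. That interval corresponds to a fold between 0.682 and 1.32. The sign was not stable: without DMSO 1 the value was 0.05, and without Aβ40 2 it was 0.07. An antisense gene on the other strand, Il1bos, overlaps Il1b by 1243 bases and had 68 to 97 counts, against at least 23297 for Il1b.

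**Figure D1:**
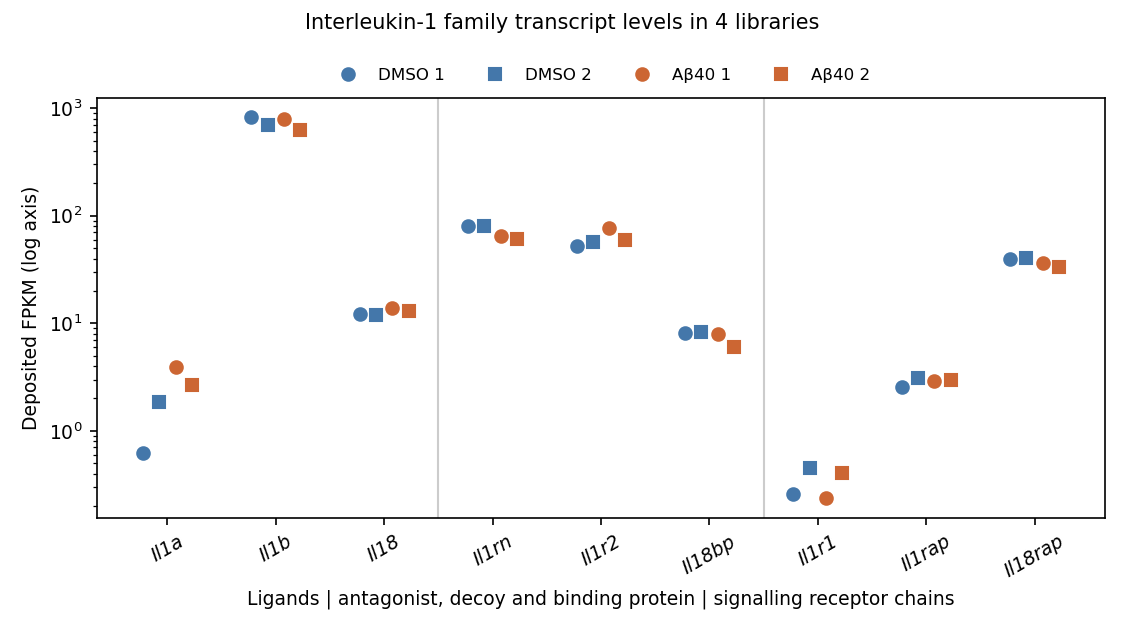
Deposited FPKM (log axis) of the 9 interleukin-1 family genes, grouped by role, with 1 point per library (blue DMSO, orange Aβ40, circles library 1, squares library 2). Il1b sits between 632 and 824 and Il1r1 below 0.5, and Il1a is the gene whose 4 points are the most spread, from 0.622 to 3.96.

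Il1a was scarce and had the widest difference between groups. It had 23 counts in DMSO 1, 69 in DMSO 2, and 136 and 102 in the Aβ40 pair, or 1.23, 3.71, 7.96 and 5.33 CPM. The groups did not overlap, but the DMSO libraries also differed from each other by 3.01-fold, and their 95% exact Poisson intervals of 14.6 to 34.5 counts and 53.7 to 87.3 counts did not overlap. These intervals cover counting error only. The DMSO mean was 2.47 ± 1.75 CPM (SD, n = 2) and the Aβ40 mean 6.64 ± 1.85 CPM (SD, n = 2). The log2 fold change was 1.42 (SE 0.50), a 2.68-fold difference with a 95% interval from 1.22 to 5.90, and it did not pass the adjustment over all genes (edgeR quasi-likelihood, unadjusted p = 0.0197, Benjamini-Hochberg adjusted p = 0.342). Of the tested genes 5.76% had a smaller p.

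The size of the Il1a difference depended on which library was left out, and its call on that and on the filter on low counts. Without DMSO 2 the log2 fold change was 2.41, and without DMSO 1 it was 0.83. With no filter on low counts the value stayed at 1.42 and passed (edgeR, adjusted p = 0.0232), while DESeq2 gave 1.41 without a call (adjusted p = 0.272). Over 11 alternatives the log2 fold change ran from 0.83 to 2.41. The summed markers of B cells, dendritic cells, monocytes and macrophages given above were higher in both Aβ40 libraries as well. Within the 10 monocyte and macrophage markers 6 were higher in both Aβ40 libraries, against 23.2% of all tested genes, with C1qb the furthest at 1.62 on the log2 scale. Another 2 were lower in both, Csf1r (-0.25) and Cx3cr1 (-0.28), against 21.9% of all tested genes, while Ccr2 and Adgre1 overlapped. These markers were named after their values were seen. The part of these cells in the Il1a level was not tested. A noncoding gene on the other strand, Gm14023, overlaps Il1a by 8217 bases and had 15 to 19 counts per library.

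Il18, the third ligand, was steady. It was at 12.2 and 12.0 FPKM in DMSO 1 and 2 and at 13.9 and 13.1 FPKM in Aβ40 1 and 2. Both Aβ40 libraries were higher by a small margin, with a log2 fold change of 0.18 (SE 0.22; edgeR, adjusted p = 0.782) and a 95% interval from -0.33 to 0.68. The gene (ENSMUSG00000039217, chromosome 9, 50554827 to 50581840) is overlapped on the other strand by Bco2 and Tex12, with at most 64 and 7 counts, against 232 to 262 for Il18.

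Of the 9 members 0 were called in either direction by edgeR or by DESeq2, which gave no adjusted p for Il1r1, against a background of 0.126% of all tested genes called by edgeR and 1.24% by DESeq2. At an unadjusted p under 0.05 edgeR had 1 of 9, Il1a, against 12.2% of all genes. The groups did not overlap for 6 of 9 members, 3 higher and 3 lower with Aβ40, against 45.1% of all tested genes, 23.2% higher and 21.9% lower. The median log2 fold change over the members was -0.07, and over all tested genes 0.01.

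**Figure D2:**
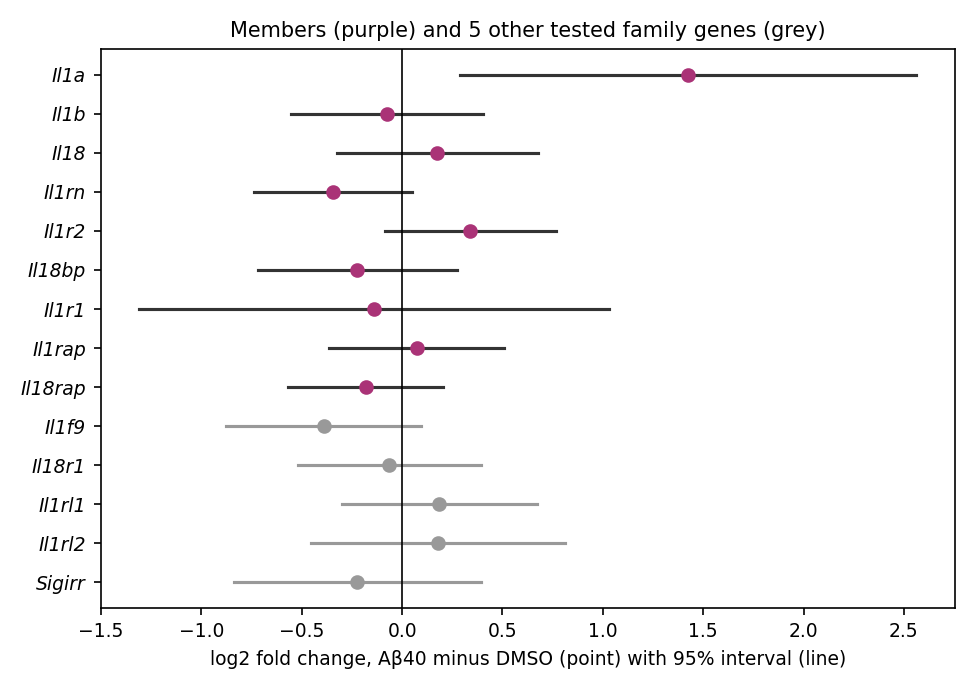
Log2 fold change of Aβ40 minus DMSO (points) with 95% intervals (lines) for the 9 members (purple points) and 5 other tested genes of the family (grey). The interval of Il1a, from 0.29 to 2.56, is the single one that does not reach 0, and the interval of Il1r1, the scarcest member, is the widest.

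Among the genes that restrain interleukin-1, the antagonist was lower and the decoy receptor higher in both Aβ40 libraries, neither past the test. Il1rn (ENSMUSG00000026981, chromosome 2, 24336853 to 24351494) was at 80.8 and 80.1 FPKM in DMSO 1 and 2 and at 65.1 and 60.4 FPKM in Aβ40 1 and 2. The 2 groups were separated by more than the spread within either, and this was the member whose DMSO libraries were closest, 1.01-fold apart. Its log2 fold change was -0.34 (SE 0.17; edgeR, adjusted p = 0.456), with a 95% interval from -0.74 to 0.05. Over the 11 alternatives it stayed between -0.41 and -0.31 and was called in none. Beside this value, the 12 neutrophil markers had a median log2 fold change of 0.10, with 8 above 0 and 4 below, from -0.61 to 0.39. Medians were 1.67 for B cell markers, 1.37 for T and NK cell markers and 1.11 for eosinophil markers. They were smaller for dendritic cell (0.50), monocyte and macrophage (0.36), and basophil and mast cell markers (0.35). The part of these cells in the Il1rn level was not tested.

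Il1r2 (ENSMUSG00000026073, chromosome 1, 40074079 to 40125231) was at 52.1 and 57.3 FPKM in DMSO 1 and 2 and at 77.4 and 59.7 FPKM in Aβ40 1 and 2. Aβ40 1 stood apart, and Aβ40 2 was barely above DMSO 2. The log2 fold change was 0.34 (SE 0.19; edgeR, adjusted p = 0.492), with a 95% interval from -0.09 to 0.76, and without Aβ40 1 it was 0.13. Il18bp (ENSMUSG00000070427, chromosome 7, 102014885 to 102018690) was at 24.9 and 25.4 CPM with DMSO and at 24.6 and 18.5 CPM with Aβ40. Here Aβ40 2 was the low library, and without it the log2 fold change moved from -0.22 (SE 0.22; edgeR, adjusted p = 0.714) to -0.05. Il18bp shares 80 bases with Numa1, an abundant gene of the other strand with 907 to 1482 counts, and the strand setting of the counts is not given in the sources used here.

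The signalling chains were at very unequal levels, and none differed between the groups beyond its spread by the test. Il1r1 (ENSMUSG00000026072, chromosome 1, 40225080 to 40317257) was the scarcest member, with 31 and 54 counts in DMSO 1 and 2 and 26 and 50 counts in Aβ40 1 and 2. Libraries numbered 1 were low and libraries numbered 2 high in both groups. Within each group the 95% exact Poisson intervals of these counts overlapped. They were 21.1 to 44 and 40.6 to 70.5 with DMSO, and 17.0 to 38.1 and 37.1 to 65.9 with Aβ40. The 95% interval of the log2 fold change, -1.31 to 1.03, reaches past a 2-fold difference in either direction. Its sign turned without DMSO 2 (0.31) and without Aβ40 1 (0.19). Il1rap (ENSMUSG00000022514, chromosome 16, 26581704 to 26730117) was at 2.56 and 3.07 FPKM with DMSO and 2.90 and 2.96 FPKM with Aβ40, which overlap. Its log2 fold change was 0.07 (SE 0.19), and -0.05 without DMSO 1.

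Il18rap (ENSMUSG00000026068, chromosome 1, 40515362 to 40551705), the interleukin-18 accessory chain, was the most abundant signalling chain. It was at 39.8 and 40.6 FPKM in DMSO 1 and 2 and at 36.7 and 33.5 FPKM in Aβ40 1 and 2. Both Aβ40 libraries were lower, with a log2 fold change of -0.18 (SE 0.17; edgeR, adjusted p = 0.695) and a 95% interval from -0.57 to 0.20. The partner chain Il18r1 was at 4.82 and 5.27 FPKM with DMSO and 5.06 and 4.50 FPKM with Aβ40, so the ratio of Il18rap to Il18r1 was between 7.26 and 8.26 in all 4 libraries.

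Ordered by mean FPKM over the 4 libraries, the members ran Il1b (738), Il1rn (71.6), Il1r2 (61.6), Il18rap (37.7), Il18 (12.8), Il18bp (7.65), Il1rap (2.87), Il1a (2.28) and Il1r1 (0.339). Il1rn and Il1r2 overlapped in range over the libraries, as did Il1rap and Il1a. All other neighbours in this order were separated in every library. FPKM divides by 1 length per gene, so isoforms that differ in length could move these levels.

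A cluster on chromosome 1 holds 6 receptor genes of the family, among them the members Il1r2, Il1r1 and Il18rap, and the levels along it were high at both ends and low between. From Il1r2 at the first end, mean levels dropped to Il1r1 and then climbed through Il1rl2, Il1rl1, the receptor chain of interleukin-33, and Il18r1 to Il18rap at the last end. Il1rl2, the receptor chain of interleukin-36, was at 0.878 and 0.935 FPKM with DMSO and 0.946 and 1.09 FPKM with Aβ40. Il1rl1 was at 2.22 and 2.17 FPKM with DMSO and 2.60 and 2.34 FPKM with Aβ40. The order was the same in each of the 4 libraries. Il1rl1 and Il18r1 are 136 bases apart on the same strand, and reads near that border could be assigned to either.

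**Figure D3:**
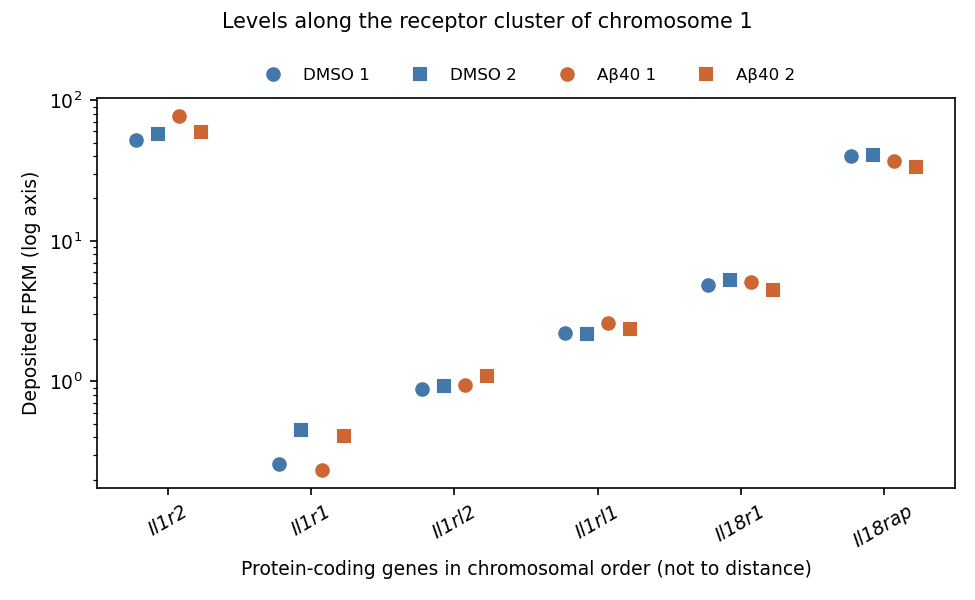
Deposited FPKM (log axis) of the 6 protein-coding genes of the receptor cluster in chromosomal order, with 1 point per library. Il1r2 and Il18rap at the ends are above 30 in every library, and Il1r1, next to Il1r2, is below 0.5.

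Ratios of antagonist or decoy to its counterpart, formed within each library from FPKM, describe the balance of the transcripts and were not tested. Il1rn to Il1b was 0.0981 and 0.115 in DMSO 1 and 2 and 0.0814 and 0.0955 in Aβ40 1 and 2. Both Aβ40 libraries were lower, the second by little. Il1r2 to Il1r1 was 201 and 126 with DMSO and 329 and 147 with Aβ40, which overlap, and the few counts of Il1r1 make it imprecise. Il18bp to Il18 was 0.674 and 0.693 with DMSO and 0.574 and 0.460 with Aβ40, so both Aβ40 libraries were lower. Il1b exceeded Il1a by 1325-fold and 373-fold in DMSO 1 and 2 and by 202-fold and 236-fold in Aβ40 1 and 2. Il1rn exceeded Il1a in each library too, by 16.4-fold at the least, in Aβ40 1.

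Of the other family genes, Il1f9, the gene of interleukin-36 gamma, was second only to Il1b. It lies in the ligand cluster of chromosome 2 that ends with Il1rn, at 24186476 to 24193568. It was at 228 and 289 FPKM in DMSO 1 and 2 and at 223 and 167 FPKM in Aβ40 1 and 2. Both Aβ40 libraries were below both DMSO libraries, the first by a narrow margin, with a log2 fold change of -0.39 (SE 0.21; edgeR, adjusted p = 0.490). Without DMSO 1 it was at -0.56, and without Aβ40 2 at -0.22. Il18r1 (-0.06), Il1rl1 (0.19), Il1rl2 (0.18) and Sigirr (-0.22), a receptor that dampens family signals, were tested without a call. The 5 tested genes had 0 calls by edgeR or DESeq2 and 0 at an unadjusted p under 0.05 in edgeR, against 12.2% of all tested genes. Between the 2 ends of that ligand cluster Il1f6, the gene of interleukin-36 alpha, had 1 to 8 counts per library, and Il1f5 and Il1f10 had 0 in all 4. Il33 had 3 to 7 counts, and Il1f8, the gene of interleukin-36 beta, had 11 in DMSO 2 and 0 elsewhere. The neuronal receptors Il1rapl1 and Il1rapl2 had 0 in all 4 libraries. A count of 0 allows up to 3 counts, or 0.157 to 0.175 CPM per library.

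Genes that mature interleukin-1 gave 0 calls in either direction among 14 tested of 15, by edgeR or DESeq2. At an unadjusted p under 0.05 edgeR had 1, Ctsg, against 12.2% of all tested genes. Of the 14, 7 were above 0 and 7 below, against 48.9% of all tested genes negative, with a median of -0.002. Levels within the list were uneven, and Nlrp1b, which was not tested, had 0 to 12 counts. Elane and Prtn3, the neutrophil elastase and proteinase 3, were the most abundant, with log2 fold changes of -0.03 (SE 0.19) and -0.17 (SE 0.20). Ctsg, cathepsin G, was at 249 and 213 FPKM with DMSO and 344 and 345 FPKM with Aβ40, a log2 fold change of 0.59 (SE 0.18; edgeR, adjusted p = 0.317). Capn1, a calpain, the protease family that cuts the interleukin-1 alpha precursor, was at -0.29 (SE 0.17). Casp1 and Nlrp3, named here after their values were seen, were at 0.25 (SE 0.18) and -0.28 (SE 0.26). Without DMSO 1, Ctsg was at 0.70, the adaptor gene Pycard at 0.53 and Nlrp3 at -0.58. Pycard, also named after its values were seen, was at 0.21 (SE 0.22) with all 4 libraries.

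Signalling genes downstream of the receptor were mostly below 0, without a call. Of 21 tested members of 22, 0 were called by edgeR or DESeq2, and edgeR had 5 lower at an unadjusted p under 0.05 (Irak1, Irak2, Irak4, Nfkb1 and Mapk14), against 5.72% of all tested genes. In all, 18 were negative and 12 were lower in both Aβ40 libraries, against 48.9% of all tested genes negative and 21.9% lower in both. The median was -0.24. Left-out libraries and other settings gave 15 to 20 negative members, with medians between -0.34 and -0.22. Myd88, the adaptor of the receptor complex, and Map2k3, a kinase upstream of p38, were the most abundant per length, at -0.11 (SE 0.17) and -0.44 (SE 0.19). Irak2, a kinase of the receptor complex, was at 28.3 and 32.0 FPKM in DMSO 1 and 2 and at 18.5 and 20.2 FPKM in Aβ40 1 and 2, a log2 fold change of -0.63 (SE 0.17; edgeR, adjusted p = 0.267). Irak4, the first kinase recruited by MYD88, was at 11.3 and 10.8 FPKM against 6.63 and 7.98 FPKM, a log2 fold change of -0.58 (SE 0.18; edgeR, adjusted p = 0.327). The 2 groups were separated for both kinases. Without DMSO 1, Irak2 was at -0.71 and Irak1 at -0.68. Without DMSO 2, Nfkb1 was at -0.58, Map2k3 at -0.53, Irak2 at -0.55, Irak4 at -0.62 and Map3k3 at 1.30. With all 4 libraries Irak1 was at -0.51, Nfkb1 at -0.45 and Map3k3 at 0.007 (SE 0.51). Map3k3 had 120 counts in DMSO 1 and 473 in DMSO 2. Irak1, Nfkb1, Mapk14 and Map3k3 were named after their values were seen. Beside these values, the neutrophil marker list had a median of 0.10. Of its 12 markers 4 were lower in both Aβ40 libraries, against 21.9% of all tested genes, and 2 were higher in both. The lower ones were Csf3r (-0.61), Mmp9 (-0.55), Cd177 (-0.21) and Cxcr2 (-0.10), and the higher ones Ly6g (0.35) and S100a9 (0.38). The B cell list had a median of 1.67 and the eosinophil list of 1.11, each with 8 of 8 markers higher in both. The T and NK cell list had a median of 1.37 with 8 of 9 tested markers higher in both. Of all tested genes 23.2% were higher in both. Medians of the dendritic cell, monocyte and macrophage, and basophil and mast cell lists were 0.50, 0.36 and 0.35. The part of these cells in the signalling genes was not tested.

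Genes that NF-kB induces downstream of interleukin-1 gave 0 calls by edgeR among 22 tested, against 0.126% of all tested genes, and edgeR had 4 at an unadjusted p under 0.05, against 12.2%. DESeq2 called 0 of the 20 for which it gave an adjusted p, which leaves out Cxcl1 and Nos2. In all, 14 of 22 were negative, against 48.9% of all tested genes, with a median of -0.13, and 12 to 18 were negative over the alternatives. Lcn2, an iron-binding granule protein, and the chemokine gene Ccl3 were the most abundant, at 0.12 (SE 0.21) and 0.01 (SE 0.18). Il6, the interleukin-6 gene, was at 12.4 and 8.71 FPKM with DMSO and 21.4 and 16.5 FPKM with Aβ40, with a log2 fold change of 0.86 (SE 0.24; edgeR, adjusted p = 0.276). Without DMSO 1 the Il6 value was 1.13. With no filter on low counts it was 0.85 and was called (edgeR, adjusted p = 0.0223), a setting that called 185 genes higher. Tnip1, a restraint on NF-kB, was at 53.3 and 51.9 FPKM against 33.5 and 37.8 FPKM, with a log2 fold change of -0.55 (SE 0.17; edgeR, adjusted p = 0.324). The Tnip1 value was -0.53 without DMSO 1 and -0.58 without DMSO 2. Cxcl1, a neutrophil chemokine named after its value was seen, had 3 and 12 counts with DMSO and 32 and 29 with Aβ40. Its log2 fold change was 2.05 (SE 0.77), and 3.33 without DMSO 2. Zc3h12a, Nfkbiz and Icam1 were also named after their values were seen. Zc3h12a was at -0.78 without DMSO 1, and without DMSO 2 Nfkbiz was at -0.54 and Icam1 at 0.92. With all 4 libraries Zc3h12a was at -0.40 (SE 0.30), Nfkbiz at -0.43 (SE 0.18) and Icam1 at 0.17 (SE 0.39).

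**Figure D4:**
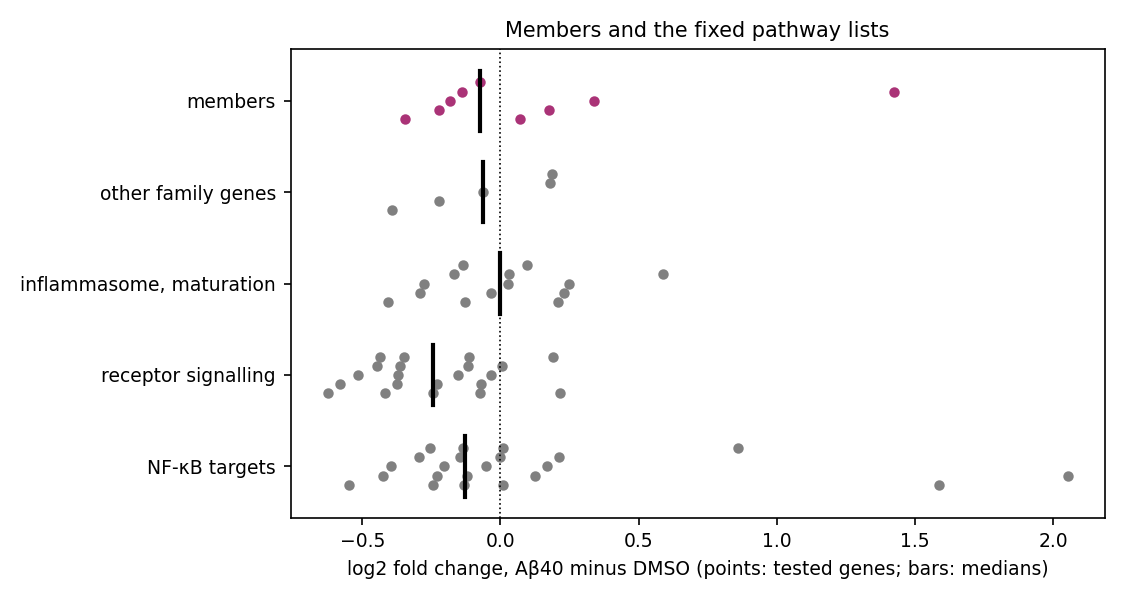
Log2 fold change of Aβ40 minus DMSO for each tested gene (points, offset vertically only to separate them) of the members and of 4 pathway lists, with the median of each as a black bar. The medians of the members, the other family genes and the maturation genes lie within 0.1 of 0, that of receptor signalling lies at -0.24, and no gene shown was called.

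**Figure D5:**
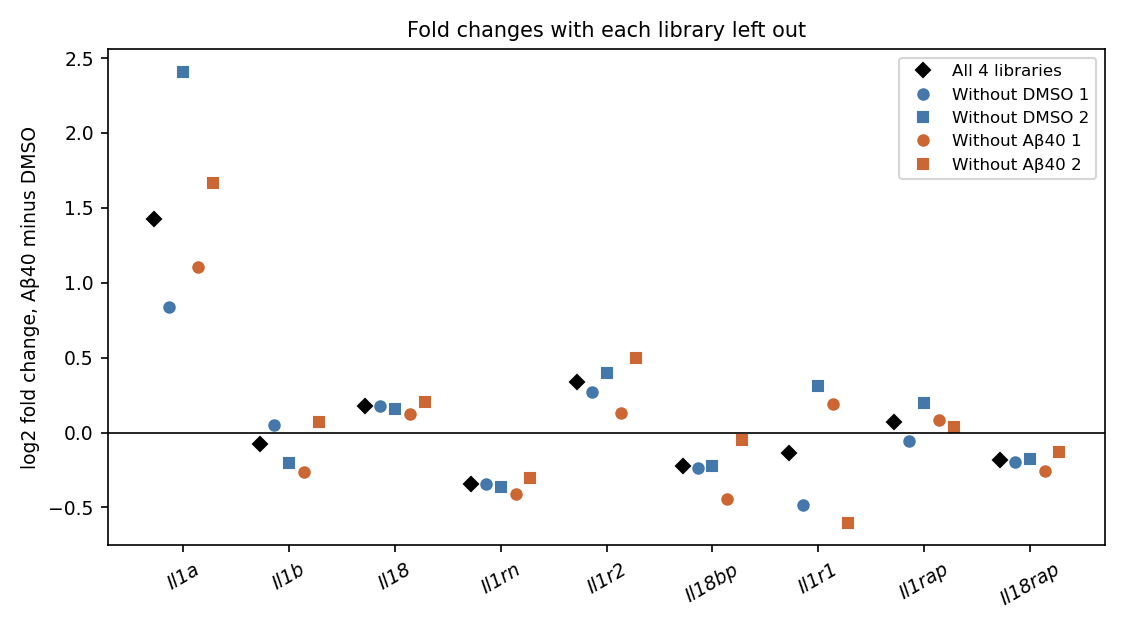
Log2 fold change of each member with all 4 libraries (black) and with each library left out in turn (coloured). Il1a ranges from 0.83 without DMSO 1 to 2.41 without DMSO 2, Il1b, Il1r1 and Il1rap change sign, and Il1rn stays between -0.41 and -0.31.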

How the data were processed

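RNA-seq libraries of 2 DMSO and 2 Aβ40 samples were used, grouped by the treatment label. The authors deposited raw read counts per gene and FPKM, 1 column per library. Per the submitters' processing notes the tools were featureCounts 1.5.0-p3 and HISAT2 2.0.5, and the build mm10, with no roles stated. The sources used here do not give the annotation release or the strand setting. As checked on the values, each deposited FPKM is the count divided by the table's gene length and by 1 constant per library.

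Counts were tested in R 4.3.3 with edgeR 4.0.16 (filterByExpr, TMM, quasi-likelihood test, 2-sided, no covariates) over 13479 genes, and called at a Benjamini-Hochberg adjusted p under 0.05. The common biological coefficient of variation was 0.210. Standard errors and 95% intervals come from this fit, and CPM are TMM-scaled. The fitting script was tested on simulated data. Alternatives were other scalings, DESeq2 1.42.0, no filter, the replicate number as a block, each library left out, and limma 3.58.1 on log2(FPKM + 1) or log2(FPKM + 0.1). The sign counts of lists under these settings were added after seeing the data.

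The members, the 4 pathway lists and the 7 marker lists were chosen with earlier results of these data known. Named were all members and other family genes and, per pathway list without a call, the 2 most abundant genes and the 2 with the smallest p among those of at least 1 CPM. Other pathway genes were named after their values were seen. In the maturation, signalling and NF-kB lists, values with 1 library left out are given where the gene was called in that setting. No gene was named for a pattern like a member's, since 4 libraries are too few. Of 16 symbols in the list of other family genes 4 were newer names of genes the table lists under older ones. No p-value was computed for ratios. Promoters are RefSeq sequences matched by symbol, for all 9 members. Overlaps with other genes use the deposited coordinates.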

Additional observations from a re-analysis of the deposited data

How the results depend on the processing

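Each group has 2 libraries, so the fit has 2 residual degrees of freedom per gene. The edgeR p-values and intervals add 6.88 prior degrees of freedom, borrowed from the spread of all tested genes. Leaving out 1 library leaves a group with a lone library that is assumed to vary like the other group. Of 13479 genes edgeR called 17 higher and 0 lower, with 771 lower at an unadjusted p under 0.05. The count called higher was 94 with DESeq2, 185 with no filter on low counts, 27 with the replicate block, 0 with limma on either FPKM scale, and 0 to 805 with 1 library left out. The count called lower was 36 with DESeq2, 70 with no filter, 1 with library size scaling, and 0 to 471 with 1 library left out. Scaling moved the median of all tested genes by less than 0.1, to between -0.04 and 0.01.

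Among members, Il1a was called with no filter (1.42), and ran from 0.83 to 2.41 with 1 library left out. Its call also depended on the library left out. Signs turned with 1 library left out for Il1b (-0.26 to 0.07; 0.05 without DMSO 1, 0.070 without Aβ40 2), Il1r1 (-0.60 to 0.31; 0.19 without Aβ40 1), Il1rap (-0.055 to 0.20, lowest without DMSO 1), Il18r1 (-0.16 to 0.0039, highest without Aβ40 2) and Sigirr (-0.47 to 0.063, highest without DMSO 1). Il18, Il1rn, Il1r2, Il18rap and Il18bp kept their sign and stayed uncalled in all 11 alternatives. With no filter, 1 NF-kB target was called higher. Ratios from counts per kilobase equal those from FPKM by construction and test nothing. Over genes, DMSO 1 and DMSO 2 had a Spearman correlation of 0.978 and a chi-square per degree of freedom of 38.9. Aβ40 1 and Aβ40 2 were more alike, at 0.987 and 12.4. DMSO 1 was closer to Aβ40 2, at 0.982 and 23.2, than to DMSO 2. The remaining pairings across groups were less alike than DMSO 1 and DMSO 2, at 0.974 to 0.977 and 41.0 to 43.9. The cause of the shifts between settings was not tested.

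The titles number the libraries 1 and 2 in each group, but no label says that a number marks a shared animal or day. Over 13479 genes the deviations of same-numbered libraries correlated at -0.23. The replicate block changed no call among the members, with Il1a at 1.55 (edgeR, adjusted p = 0.461). Il1r1 and Il1a had the fewest counts of the members, 161 and 330 over the 4 libraries.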
